A study of Mus musculus with 12 samples.

Results

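The peroxisome proliferator-activated receptors (PPARs), their partners the retinoid X receptors (RXRs) and the CCAAT/enhancer-binding proteins (C/EBPs) were followed in brown adipose tissue after activation of FGFR1, a receptor for fibroblast growth factors. The 8 genes were Ppara, Ppard, Pparg, Rxra, Rxrb, Rxrg, Cebpa and Cebpb. They were taken by name, with every probe set that the platform's table assigns to 1 of them alone, which gave 14 of 34945 single-gene probe sets on the array. There were 3 probe sets each for Ppara and Rxra, 2 each for Ppard and Cebpb, and 1 each for the other genes. A further probe set shared by Ppard and another gene was left out.

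All 12 animals were adult male ob/ob mice aged 3 months on normal chow, which lack working leptin and are obese. The 6 treated mice were given 1 mg/kg of an agonistic anti-FGFR1 antibody once into the abdominal cavity. The 6 controls were injected with control IgG and pair-fed, that is, their food was matched to that of the treated mice. Brown fat was collected on day 4 and measured on 1 Affymetrix array per mouse. Values are log2 expression, so a difference of 1 is a doubling, and arrays give no counts. Differences are anti-FGFR1 minus control IgG with the moderated standard error (SE) of limma, and a probe set is called changed at a Benjamini-Hochberg adjusted p under 0.05 over all 34945 probe sets.

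PPARs are nuclear receptors that bind fatty acids and related lipids. Each pairs with an RXR on DNA. PPAR gamma is the master regulator of fat cell formation, PPAR alpha drives genes of fatty acid oxidation, and PPAR delta is a broadly expressed relative. C/EBP beta acts early in adipogenesis and C/EBP alpha later, where C/EBP alpha and PPAR gamma maintain each other's expression. In brown fat these factors support the thermogenic gene Ucp1.

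None of the 14 probe sets passed the test, with 0 called higher and 0 called lower by limma and 3 at an unadjusted p under 0.05. Over all single-gene probe sets 6.9% were called, 2.15% higher and 4.75% lower, and 21.2% had an unadjusted p under 0.05. The median absolute difference of the 14 probe sets was 0.036, against 0.074 over all single-gene probe sets, and 10 of 14 lay below 0. In every one of the 14 the values of both groups overlapped. Over all single-gene probe sets the groups did not overlap in 4.56%, 1.23% higher and 3.33% lower. With 14 probe sets, some of the same gene, counts of 0 cannot be told from these shares. The lowest adjusted p values belonged to 1 of the 3 probe sets of Rxra and 1 of the 2 of Cebpb.

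**Figure D1:**
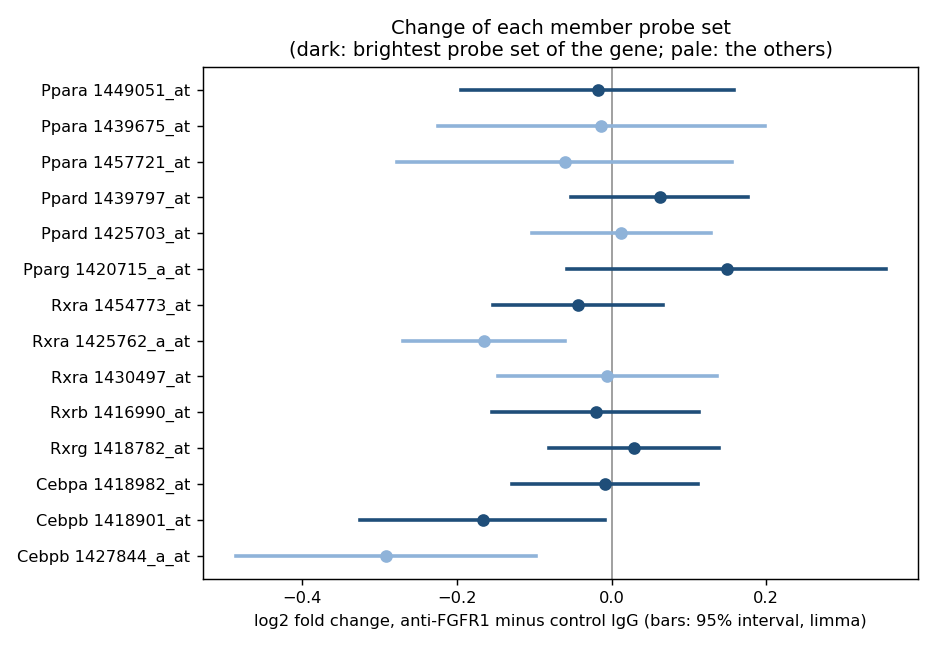
Log2 fold change (anti-FGFR1 minus control IgG, x axis) of the 14 probe sets of the 8 genes (y axis), with points for the limma estimate and bars for its 95% interval, n = 6 mice per group. The intervals of 1 Rxra probe set (-0.27 to -0.060) and of both Cebpb probe sets lie below 0, and the other 11 include 0.

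Cebpb had the largest difference of the 8 genes, on its second probe set. On its brighter probe set, 1418901_at, control arrays ran from 12.90 to 13.17 with a median of 13.08, and anti-FGFR1 arrays from 12.66 to 13.04 with a median of 12.88. All 6 treated values lay below the control median, 3 of them below every control. The difference was -0.17 ± 0.07 (SE, n = 6 per group, 95% interval -0.32 to -0.0087), with a limma adjusted p of 0.208. The second probe set, 1427844_a_at, ran from 11.06 to 11.32 in controls (median 11.23) and from 10.57 to 11.17 after anti-FGFR1 (median 10.94). Here 4 of 6 treated arrays were below all controls. Its difference was -0.29 ± 0.09, equal to -18.3% with an interval of -28.6% to -6.55%, and it did not pass (limma adjusted p = 0.0694). The lowest Cebpb value on both probe sets was that of anti-FGFR1 replicate 1, and the highest treated value that of anti-FGFR1 replicate 2.

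The probe sets of Cebpb varied together from mouse to mouse. With group means removed, their values on the 12 arrays had a Pearson r of 0.945 (permutation p = 5.0e-05, adjusted 0.0004 over 8 pairs of probe sets) and a Spearman rho of 0.923 (permutation p = 8.0e-05, adjusted 0.00064). Without the 2 arrays farthest from the median r was 0.958. Their mean differed by -0.23 ± 0.08 (limma adjusted p = 0.099). The second probe set passed in 4 variants of the fit, each close to the threshold. It had an adjusted p of 0.0409 without anti-FGFR1 replicate 2, 0.0442 without dim probe sets, 0.0459 with the macrophage marker mean as a covariate and 0.0496 with array weights. With the endothelium marker mean as a covariate it was at -0.12 ± 0.16 (limma adjusted p = 0.821).

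Cebpa, on its single probe set, was nearly level between the groups. Control arrays ran from 13.05 to 13.34 (median 13.18) and anti-FGFR1 arrays from 13.09 to 13.27 (median 13.18). The treated values lay within the control range. The difference was -0.0088 ± 0.057 with an interval of -0.13 to 0.11 (limma adjusted p = 0.952). Set against each other within an array, Cebpa minus Cebpb averaged 0.14 with an SD of 0.054 over the 6 controls, and 0.29 with an SD of 0.16 over the 6 treated mice. That shift of 0.16 had an exact permutation p of 0.0433 (two-sided), and 0.303 after adjustment over the 7 pairs compared within the families. It passed without anti-FGFR1 replicate 6 (0.20, exact permutation p = 0.00649, adjusted 0.0455).

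Pparg had the largest upward difference, and its probe set did not pass. Control arrays ran from 11.53 to 12.25 (median 11.92) and treated arrays from 11.89 to 12.17 (median 12.07). The treated values all lay inside the control range, and 5 of 6 were above the control median. The difference was 0.15 ± 0.10 with an interval of -0.058 to 0.35 (limma adjusted p = 0.412), so a rise of 27.9% remains inside the interval. Control IgG replicate 1 had the lowest value, 11.53, and without it the difference was 0.072 ± 0.079. The same array had the highest 3' to 5' difference among controls (0.221), a measure of RNA quality taken from the Actb and Gapdh control probe sets. With that measure as a covariate Pparg was at 0.31 ± 0.11 (limma adjusted p = 0.171). The part of RNA quality in this difference was not tested further.

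Pparg has several start sites, and the deposited table has 1 single-gene probe set for it, so isoforms cannot be told apart here. Of its 3 start sites in RefSeq, 1 holds the C/EBP core letters TTGCNNAA (N is any base, both strands searched) in the 250 bases before it, at 2 places. The same stretches before the start sites of Lep and Lcn2, called genes of the C/EBP target list below, hold it once each. The 3 are shown 5′ to 3′ on the gene's strand, with the matched letters in capitals and the start site just after the last base. They come from RefSeq on GRCm38.p6, the Pparg stretch at chr6:115421816-115422065 (+ strand), that of Lep at chr6:29059971-29060220 (+ strand) and that of Lcn2 at chr2:32387740-32387989 (- strand).
Pparg: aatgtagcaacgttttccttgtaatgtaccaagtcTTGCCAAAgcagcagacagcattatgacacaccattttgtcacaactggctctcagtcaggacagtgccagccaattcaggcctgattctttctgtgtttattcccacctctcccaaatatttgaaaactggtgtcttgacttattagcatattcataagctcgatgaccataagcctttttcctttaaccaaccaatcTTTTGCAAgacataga
Lep: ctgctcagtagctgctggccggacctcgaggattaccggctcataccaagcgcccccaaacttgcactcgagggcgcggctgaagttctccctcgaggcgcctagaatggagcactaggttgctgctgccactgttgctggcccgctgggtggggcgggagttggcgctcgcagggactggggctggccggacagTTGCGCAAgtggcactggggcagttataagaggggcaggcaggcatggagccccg
Lcn2: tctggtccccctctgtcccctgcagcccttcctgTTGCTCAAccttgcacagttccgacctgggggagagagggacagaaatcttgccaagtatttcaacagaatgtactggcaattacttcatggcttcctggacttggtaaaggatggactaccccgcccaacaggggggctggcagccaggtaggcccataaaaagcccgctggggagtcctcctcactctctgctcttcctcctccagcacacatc
The core is common: 9.56% of 32851 windows of the same length held it. Among the 13 windows of the 8 genes 2 did, the other being a window of Rxrg. Among 11 windows, of 10 of the 14 called list genes, 3 did, those of Lep, Lcn2 and Rarb. A stricter core, TTGCNCAA, was in 2.61% of all windows, in 0 of the 13 and in 2 of the 11. Those 2 are the windows of Lep and Lcn2, and both Pparg matches fit the looser letters only. Angptl4, Gpd1, Bhlhe40 and Ppargc1b had no window used here. The PPAR and RXR element, AGGTCA repeated after 1 further base, on either strand, was in 0 of the 13 and in 0.0335% of all windows. Only these exact letters were searched, and at so low a share a count of 0 in 13 windows says nothing about these genes. A match is a run of letters and not a measured site, and its absence covers only this window.

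Ppara was measured by 3 probe sets, and all gave small differences. On the brightest, 1449051_at, controls ran from 12.15 to 12.68 (median 12.34) and treated arrays from 12.22 to 12.46 (median 12.36). The treated values lay within the control range. Its difference was -0.018 ± 0.083 with an interval of -0.20 to 0.16 (limma adjusted p = 0.93). The other Ppara probe sets were at -0.013 ± 0.099 and -0.061 ± 0.10, with limma adjusted p values of 0.959 and 0.787. Control IgG replicate 2 had the highest Ppara value on all 3, at 12.68, 11.98 and 12.16. The probe sets followed each other across mice, with Pearson r between 0.843 and 0.92 and Spearman rho between 0.762 and 0.888 (permutation p adjusted over 8 pairs, at most 0.0106 and 0.0308). Without the 2 arrays farthest from the median r was between 0.596 and 0.809. The spread among controls on the brightest probe set was 0.20 (SD, n = 6) against 0.099 after anti-FGFR1, and the difference in spread was not tested.

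Ppard was close to level. On its brighter probe set, 1439797_at, controls ran from 8.48 to 8.63 (median 8.53) and treated arrays from 8.47 to 8.74 (median 8.60). In 5 of 6 treated mice the value was above the control median, and 2 exceeded every control. The difference was 0.062 ± 0.054 with an interval of -0.052 to 0.18 (limma adjusted p = 0.557). The dimmer probe set, at 6.81 in controls, was at 0.012 ± 0.054 (limma adjusted p = 0.928). It lay below the median control level of all single-gene probe sets, 7.50. Across mice its values were set against those of the brighter one (Pearson r = -0.393, permutation p = 0.231, adjusted 0.369; Spearman rho = -0.343, permutation p = 0.296, adjusted 0.474), a relation that did not pass.

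**Figure D2:**
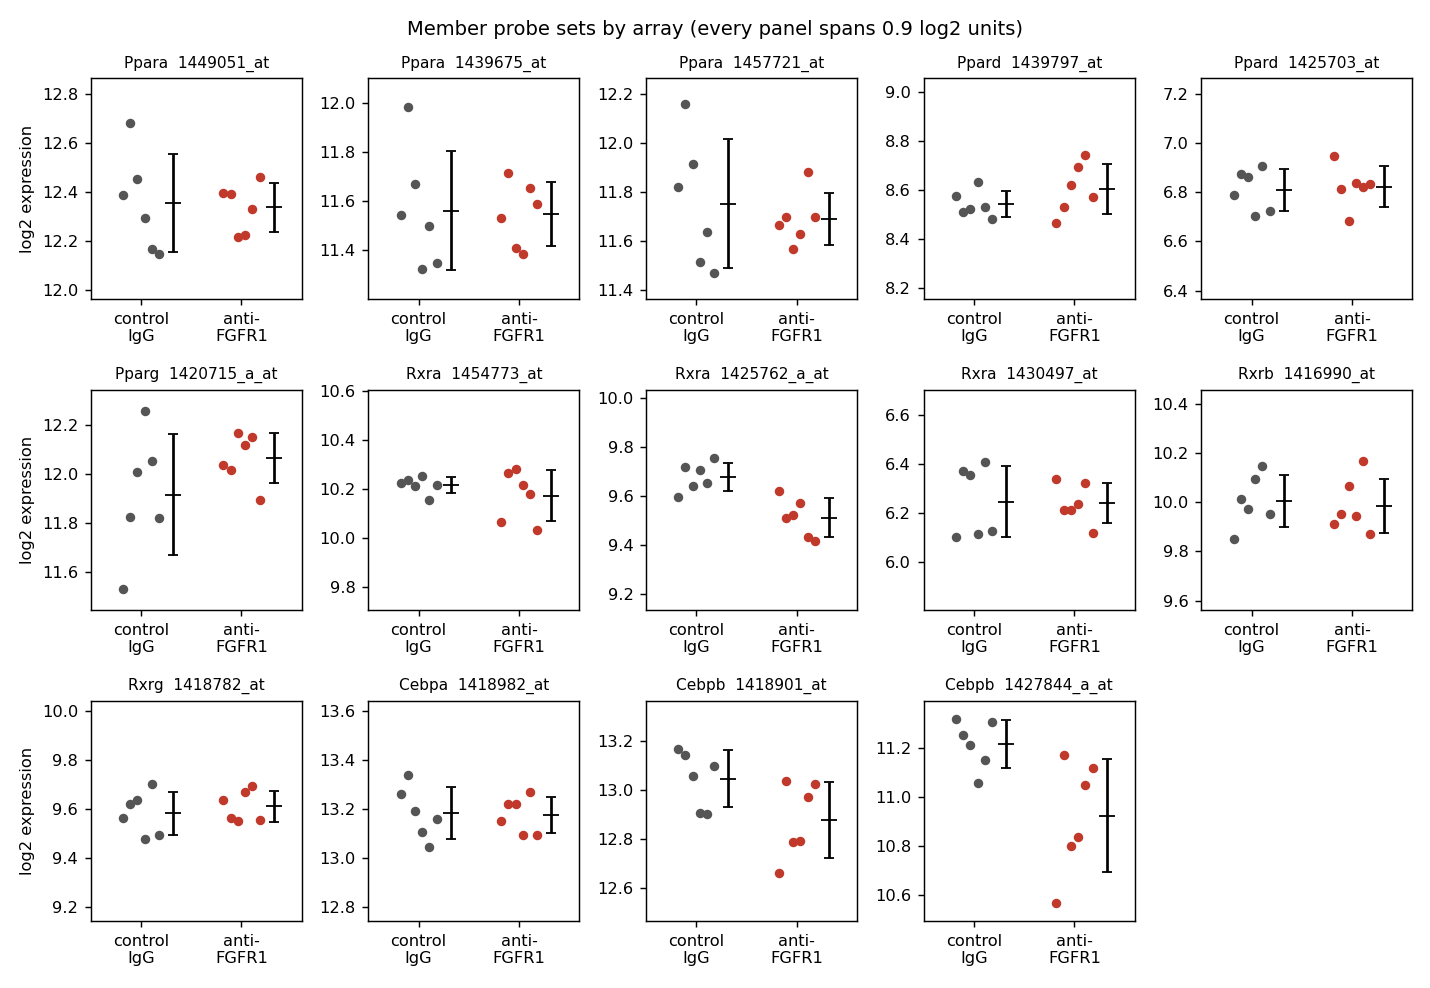
Log2 expression (y axis, 0.9 log2 units in every panel) of the 14 probe sets on each of the 12 arrays, in grey for 6 control IgG and red for 6 anti-FGFR1 mice, with the mean and SD as a bar. The groups overlap in every panel. In the Rxra panel of 1425762_a_at 5 of 6 treated arrays lie below all controls, and in the Cebpb panel of 1427844_a_at 4 of 6.

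The 3 probe sets of Rxra all lay below 0 with overlapping intervals, and a difference between them was not tested. On the brightest, 1454773_at, controls lay in a narrow band from 10.15 to 10.25 (median 10.22), and treated arrays ran from 10.03 to 10.28 (median 10.20). Of the treated values 2 lay below that band and 2 above it. The difference was -0.043 ± 0.052 with an interval of -0.15 to 0.067 (limma adjusted p = 0.69). On 1425762_a_at, controls ran from 9.59 to 9.75 (median 9.68) and treated arrays from 9.41 to 9.62 (median 9.52). All 6 treated arrays were below the control median, and anti-FGFR1 replicate 1 (9.62) was the only one above the lowest control. This probe set was at -0.17 ± 0.05, equal to -10.8%, and had the lowest adjusted p of the 14 (limma, 0.0572; exact permutation p = 0.00433 before adjustment). The third, at 6.24 in controls and thus dim, was at -0.0055 ± 0.067 (limma adjusted p = 0.976).

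The middle Rxra probe set passed in 5 variants of the fit. They were the fit without dim probe sets (limma adjusted p = 0.0237), without control IgG replicate 1 (0.0385), with a trended and robust spread (0.0424), without anti-FGFR1 replicate 1 (0.047) and with array weights (0.0472). After a second quantile normalization it was at -0.13 ± 0.05 (limma adjusted p = 0.132). For none of the 3 pairs of Rxra probe sets did the correlation across mice pass (Pearson r 0.155, -0.141 and 0.136, permutation p adjusted 0.686 each; Spearman rho 0.217, -0.203 and 0.147, adjusted at least 0.53). Averaged within the gene, the Rxra difference was -0.071 ± 0.039 (limma adjusted p = 0.299).

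Rxrb and Rxrg, the other RXR genes, were close to level. Rxrb ran from 9.85 to 10.15 in controls (median 9.99) and from 9.87 to 10.17 after anti-FGFR1 (median 9.95). Its difference was -0.021 ± 0.063 with an interval of -0.15 to 0.11 (limma adjusted p = 0.891). Rxrg, the RXR of muscle and brain, ran from 9.48 to 9.70 in controls (median 9.59) and from 9.55 to 9.69 after treatment (median 9.60). It was at 0.029 ± 0.051 with an interval of -0.081 to 0.14 (limma adjusted p = 0.805). In both genes the groups overlapped, and of the 12 treated values 1, of Rxrb, lay outside the control range. Anti-FGFR1 replicate 5, whose mean over skeletal muscle markers was 7.12 against 9.58 to 11.7 on the control arrays, had 9.69 for Rxrg, the highest treated value. Among controls the order was the other way. Control IgG replicates 6 and 4, lowest in these markers (9.58 and 10.43), had the lowest Rxrg values (9.49 and 9.48). Control IgG replicate 5, highest in the markers (11.70), had the highest (9.70). A relation of Rxrg to the muscle markers was not tested.

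The response did not pass as different in any pair within a family. The 3 PPAR pairs, 3 RXR pairs and the C/EBP pair had adjusted exact permutation p values between 0.303 and 0.734. Ppara minus Pparg moved by -0.17 ± 0.16 (SE, exact permutation p = 0.34), the widest of the PPAR pairs. A p above the threshold does not show that the genes respond alike.

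Across mice, with the group means removed, Pparg and Rxrb had the highest correlation of the 28 pairs in the values as deposited. Their Pearson r over 12 arrays was 0.757 (permutation p = 0.00379) and Spearman rho 0.804 (permutation p = 0.00263), and r was 0.725 without the 2 arrays farthest from the Pparg median. After adjustment over all 28 pairs of the 8 genes these were 0.106 and 0.0736, so the relation did not pass. Within the control arrays alone r was 0.84 and within the treated arrays 0.8. Pparg and Cebpb had the lowest r, -0.611 (permutation p = 0.0179, adjusted 0.25), with rho = -0.706 (permutation p = 0.00985, adjusted 0.138), and did not pass. Without control IgG replicates 1 and 4, the 2 arrays farthest from the Pparg median, r was -0.529. Within the control arrays alone it was -0.88 and within the treated arrays -0.401. By either measure 0 of 28 pairs passed, and by Pearson 2 had an unadjusted permutation p under 0.05. After a second quantile normalization Pparg and Rxrb were at r = 0.577 (permutation p = 0.0521), below Ppara and Cebpa at 0.601, and Pparg and Cebpb at -0.613 (permutation p = 0.0117). All pairs share the same arrays and their RNA quality.

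**Figure D3:**
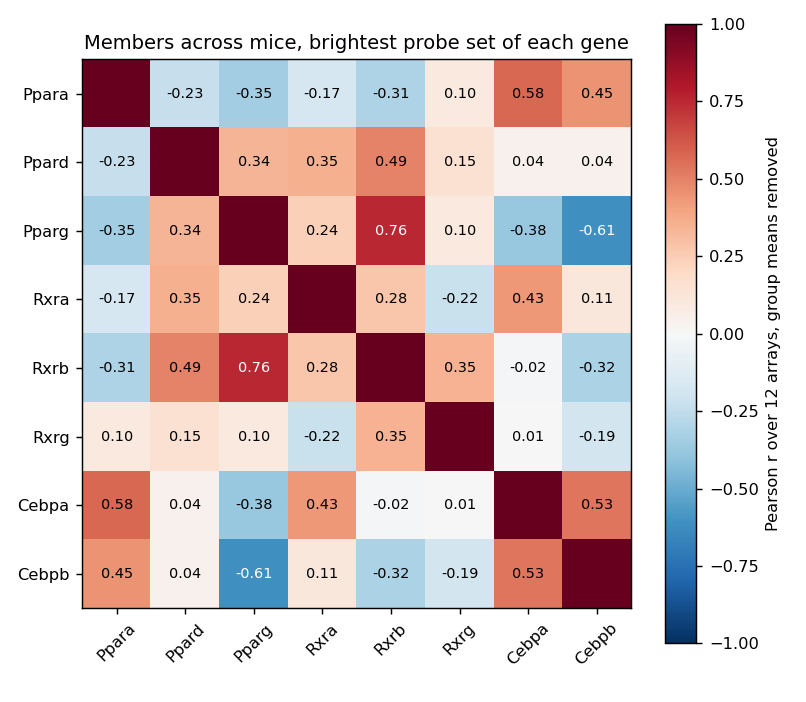
Pearson r between the brightest probe sets of the 8 genes over 12 arrays with group means removed (colour and number in each cell; rows and columns are genes). The highest value is 0.76 for Pparg and Rxrb and the lowest -0.61 for Pparg and Cebpb; no pair passed after adjustment over 28 pairs.

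Among 9096 genes brighter than the median, those whose group-centred values followed each factor most closely over the 12 arrays are given as a description of likeness only. For Pparg they were Ankrd11 (r = 0.962) and Foxn2 (0.945), for Ppara Ppp1r3b and Ap4m1 (0.888 each), and for Ppard N4bp3 and Tmub2 (0.822 each). Rxra was followed by Jcad (0.931) and Add1 (0.897), Rxrb by Crcp (0.893) and Arhgef12 (0.889), and Rxrg by Rnf185 (0.921) and Drp2 (0.898). Rexo1 (0.918) and Iws1 (0.883) were closest to Cebpa, and Ndst2 (0.926) and Gsdmd (0.908) to Cebpb. None of these 16 genes was called between the groups, the lowest limma adjusted p being 0.0638 for Ap4m1.

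Genes around the 8 factors are given by list, each gene by its brightest probe set. The lists were chosen with earlier results of these data known, so their counts of calls are a description and not a test. Of all 18193 genes, 7.21% were called this way, 2.61% higher and 4.61% lower, and the median difference was 0.0091. Of 29 measured targets of PPAR alpha and PPAR delta 1 rose and 4 fell, and 24 did not pass, with a median of 0.0095. Acaa1b, a thiolase of peroxisomal beta-oxidation, was at -0.55 ± 0.09 (limma adjusted p = 0.00139). Its controls ran from 9.93 to 10.45 and treated arrays from 9.43 to 9.74, with no overlap. Angptl4, which inhibits lipoprotein lipase, was at -0.47 ± 0.06 (limma adjusted p = 0.00026), also without overlap (12.06 to 12.39 against 11.66 to 11.88). Its second probe set, dim at 4.87 in controls, was at -0.32 ± 0.12 and did not pass (limma adjusted p = 0.136). The mitochondrial carrier Ucp3 was at -0.46 ± 0.10 (limma adjusted p = 0.0106), and its second probe set at -0.48. The call of Ucp3 was lost with the 3' to 5' difference as a covariate (-0.39 ± 0.13, limma adjusted p = 0.13) and by the exact permutation test (adjusted 0.0813).

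The remaining called targets of this list were named after their values were seen. Fabp3, a fatty acid carrier of oxidative tissue, was at -0.21 ± 0.05 (limma adjusted p = 0.0271), and at -0.13 ± 0.06 (0.325) with the 3' to 5' difference as a covariate. Its second probe set, 8.75 in controls against 14.0 for the first, was at -0.050 ± 0.098 (limma adjusted p = 0.823). Removing any 1 of 7 arrays ended the call of the first. Those 7 were control IgG replicates 3, 4, 5 and 6 and anti-FGFR1 replicates 2, 3 and 6, with adjusted p between 0.0503 and 0.0636. Cpt2, which brings long-chain acyl groups into mitochondria, rose by 0.22 ± 0.05 (limma adjusted p = 0.0173), and with the same covariate was at 0.24 ± 0.07 and did not pass (0.0626). By the exact permutation test neither Fabp3 nor Cpt2 passed (adjusted 0.0665 each). Nor did they pass without the array of each group lowest in skeletal muscle markers (limma adjusted p = 0.0765 and 0.0797). Common PPAR alpha targets such as Pdk4 (-0.030), Acadm (-0.031), Plin2 (0.029) and Cpt1a (0.061) lay near 0 and did not pass.

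Of 19 measured PPAR gamma targets of fat cells 1 rose and 0 fell (limma; 5 had an unadjusted p under 0.05), and the median was 0.027. Gpd1, glycerol-3-phosphate dehydrogenase, rose by 0.24 ± 0.05 (limma adjusted p = 0.0139), with controls from 13.86 to 14.05 and treated arrays from 14.09 to 14.33. Its other 3 probe sets were at 0.20, 0.089 and 0.075 and did not pass, and with the 3' to 5' difference as a covariate the brightest was at 0.23 ± 0.07 (limma adjusted p = 0.108). With the endothelium mean as a covariate it was at 0.066 ± 0.083 (limma adjusted p = 0.812). Without the array of each group lowest in skeletal muscle markers it was at 0.21 ± 0.06 (limma adjusted p = 0.0595). Agpat2, of triglyceride synthesis, was at 0.16 ± 0.05 (limma adjusted p = 0.0949) and the glycerol channel Aqp7 at -0.16 ± 0.06 (0.141), the second probe set of Aqp7 being at 0.085. The brightest targets, Fabp4 (0.023), Ucp1 (0.027) and Cidea (-0.035), were near the top of the scale, at 14.7, 14.5 and 14.4 in controls.

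**Figure D4:**
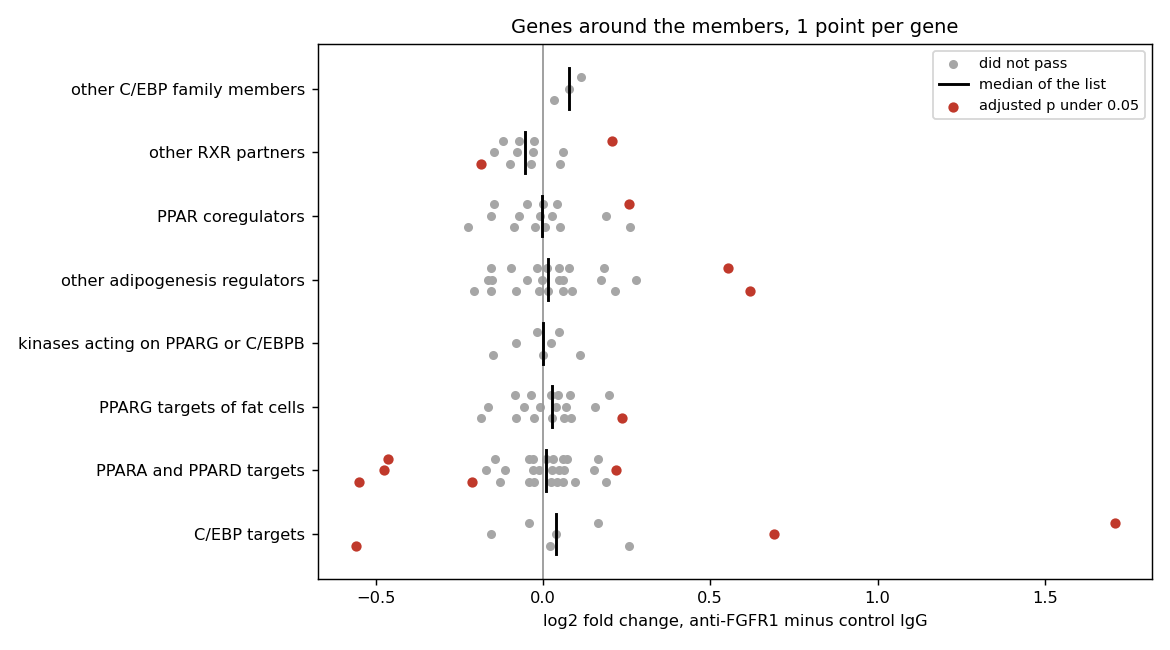
Log2 fold change (anti-FGFR1 minus control IgG, x axis) of each measured gene in the 8 lists (y axis), 1 point per gene by its brightest probe set, red where the limma adjusted p is under 0.05, with a black bar at the list's median. Most points lie near 0; Lcn2 (1.71) is the farthest to the right and Lep (-0.56) and Acaa1b (-0.55) the farthest to the left.

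Among 9 measured targets of the C/EBPs, 2 rose and 1 fell, with a median of 0.038. The calls were those of Lcn2, Retn and Lep. Because the list was chosen with earlier results of these data known, their share describes the list only. Lcn2, an acute-phase lipocalin, rose by 1.71 ± 0.18 (limma adjusted p = 7.4e-05), from 7.74 to 8.58 in controls to 9.28 to 10.34. Retn, resistin, rose by 0.69 ± 0.08 (limma adjusted p = 0.000231). Lep was at -0.56 ± 0.10 (limma adjusted p = 0.00429), with treated arrays from 10.54 to 11.20 all below the controls (11.37 to 11.54). With the endothelium mean as a covariate it was at -0.27 ± 0.17 (limma adjusted p = 0.563). These are RNA values of the gene, in ob/ob mice that lack working leptin. Lep and Retn, hormone genes of the fat cell, thus moved in opposite directions, and so did Lep and Lcn2. Lep and Lcn2 both hold the C/EBP core letters before their start, and the window of Retn has 0 matches. A link of these letters to the changes was not tested. The acute-phase genes Orm1 (0.26) and Saa3 (0.16) did not pass. Of 3 measured other C/EBP family members 0 passed by limma, none with an unadjusted p under 0.05. Cebpg was at 0.11 ± 0.06 (limma adjusted p = 0.28), Ddit3 at 0.079 ± 0.11 and Cebpd at 0.032 ± 0.095. Their other probe sets lay between -0.059 and 0.023 and did not pass.

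Other partners of RXR showed 1 rise and 1 fall among 12 measured, with a median of -0.053. Nr1h3, the liver X receptor alpha that senses oxysterols, rose by 0.21 ± 0.06 (limma adjusted p = 0.0396), and the retinoic acid receptor Rarb was at -0.19 ± 0.05 (0.0477). Both calls ended under removal of most single arrays and in the fit with the 3' to 5' difference (0.0577 and 0.102). Among fits without 1 array, Nr1h3 passed only without control IgG replicate 4 or anti-FGFR1 replicate 2 or 6, and was between 0.0527 and 0.0888 without any of the other 9. It did not pass in 6 other settings, and passed in others, such as after a second quantile normalization (0.00885). Among these fits Rarb passed only without control IgG replicate 5 or anti-FGFR1 replicate 1 or 5, and was between 0.0658 and 0.105 otherwise. Rarb did not pass in 7 other settings, such as after a second quantile normalization (-0.15, adjusted 0.117). In others it did, such as with array medians centred (0.0438). Thra, a thyroid hormone receptor, did not pass on its brightest probe set (-0.12 ± 0.05, limma adjusted p = 0.19), whereas its 2 other probe sets did (-0.24 and -0.23, adjusted 0.00743 and 0.0473).

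Of 16 measured PPAR coregulators 1 rose, the coactivator Ppargc1b (0.26 ± 0.07, limma adjusted p = 0.0498), and the list's median was -0.0034. Among fits without 1 array, it passed only without control IgG replicate 2 or 5, and was between 0.0528 and 0.108 without any of the other 10 arrays. Ppargc1b did not pass in 7 other settings, such as with array medians centred (0.0611). In others it did, such as after a second quantile normalization (0.037). Med1, the Mediator subunit that docks PPAR gamma, was at 0.19 ± 0.06 (limma adjusted p = 0.0575), and 1 of its 6 other probe sets passed (0.18, adjusted 0.0419). The coactivator Ncoa1 was at -0.15 ± 0.05 (limma adjusted p = 0.103), and its 2 other probe sets, at -0.12 and 0.14, did not pass. Of 7 kinases acting on PPAR gamma or C/EBP beta 0 passed (limma; 1 had an unadjusted p under 0.05), and the median was -0.00089. Cdk7 was at -0.15 ± 0.05 (limma adjusted p = 0.0795), Cdk5r1 at 0.11 ± 0.06 and Gsk3b at -0.081 ± 0.064. Of the 5 other Gsk3b probe sets 1 passed (-0.21, limma adjusted p = 0.0338). The 4 other probe sets of Cdk7 (-0.0035, -0.0055, -0.11 and -0.0039) and the 3 of Cdk5r1 (0.036, 0.15 and 0.047) did not pass.

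Of 25 other regulators of adipogenesis 2 rose and 0 fell (limma; 7 had an unadjusted p under 0.05), with a median of 0.015. The transcriptional repressor Bhlhe40, also a clock factor, rose by 0.55 ± 0.09 (limma adjusted p = 0.00189), from 9.18 to 9.59 in controls to 9.71 to 10.16 on treated arrays. Klf15, a glucocorticoid-responsive factor that promotes adipogenesis, rose by 0.62 ± 0.16 (limma adjusted p = 0.0284), with 3 of 6 treated arrays above all controls. Removing any 1 of control IgG replicates 3, 5 and 6 or anti-FGFR1 replicates 1, 2 and 6 ended the Klf15 call (0.0521 to 0.0693), and with the 3' to 5' difference as a covariate it was at 0.32 ± 0.17 (0.375). With the endothelium mean as a covariate Klf15 was at -0.014 ± 0.22 (limma adjusted p = 0.988), and it did not pass with a trended and robust spread (0.055) or by the exact permutation test (adjusted 0.126). Nr1d1, the repressor REV-ERB alpha, was at 0.28 ± 0.09 and did not pass (limma adjusted p = 0.07). Fgfr1, the antibody's target, was at -0.20 ± 0.09 (limma adjusted p = 0.207) and its co-receptor Klb at -0.043 ± 0.066 (0.766). The 2 other Fgfr1 probe sets were at -0.23 (limma adjusted p = 0.101) and 0.028 (0.819). The second Klb probe set, dim at 5.75 in controls, was at 0.15 (limma adjusted p = 0.226).

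The tissue label was borne out by brown fat markers, with Ucp1 at 14.5 in controls and a mean over 11 markers of 11.2 to 11.6 on control and 11.5 to 11.6 on treated arrays (2 rose and 2 fell). White fat markers (11 measured, 1 rose and 2 fell) averaged 9.70 to 9.98 and 9.68 to 10.04, and skeletal muscle markers (14, 0 called by limma and 0 at an unadjusted p under 0.05) 9.58 to 11.7 and 7.12 to 11.5. Macrophage markers (18, 4 rose) averaged 9.26 to 9.79 and 9.45 to 9.78 (exact permutation p = 0.0606), and fibroblast and preadipocyte markers (11, 3 rose and 2 fell) 10.1 to 10.6 and 10.2 to 10.6 (exact permutation p = 0.11). Markers of the endothelium (14, 7 fell) and of smooth muscle and pericytes (10, 7 fell) averaged 9.72 to 9.94 and 9.78 to 9.97 in controls and 9.48 to 9.68 and 9.49 to 9.68 after anti-FGFR1, without overlap (exact permutation p = 0.0022 each, the smallest possible). The 3' to 5' difference averaged 0.161 in controls (SD 0.031) and 0.203 in treated mice (SD 0.027), with an exact permutation p of 0.0368. With the endothelium mean, which separates the groups, as a covariate, standard errors were wider and Lcn2 alone (2.41 ± 0.25) passed of the 14 list genes called above by their brightest probe set. Of the others, Klf15 (-0.014), Gpd1 (0.066), Lep (-0.27), Fabp3 (-0.14), Angptl4 (-0.32) and Bhlhe40 (0.43) were then smaller in size. Acaa1b (-0.50), Retn (0.66) and Ppargc1b (0.25) were close to their values above. Ucp3 (-0.58), Cpt2 (0.28), Rarb (-0.25) and Nr1h3 (0.23) were larger in size. The moves of single genes between the 2 fits were not tested. The part of these shifts in the results above was not tested beyond the covariate fits, and in whole tissue fewer cells of a type and less RNA per cell cannot be told apart.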

How the data were processed

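Brown adipose tissue of 12 mice was measured on 12 arrays, 6 per group, and groups and replicate numbers were taken from the sample titles. The deposited table holds log2 expression values for 45101 probe sets, made with RMA and limma per the submitters' processing notes, with no version, and no genome build is given in the sources used here. RMA adjusts background, normalizes arrays together and pulls changes of dim probe sets toward 0. Values ran from 3.16 to 14.9 and were used as deposited. Probe sets with a single gene (34945; 932 had several and 9211 no entry) were renamed through Entrez identifiers, of which 34741 were found in a GRCm38.p6 gene table; the 64 control probe sets stayed out.

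The comparison used limma's lmFit and eBayes (version 3.58.1, under R 4.3.3), two-sided and without covariates, adjusted over all single-gene probe sets. Each gene is represented by its brightest probe set (mean over the 12 arrays). Single values used exact permutation tests over 924 assignments. Correlations used 100000 permutations within groups (scipy 1.17.1, numpy 2.4.6). On simulated data with 34945 probe sets, 31% of changes of 0.25 and 82% of changes of 0.5 on the log2 scale were recovered. Of the calls made there, 2.59% were false. Far fewer probe sets were changed in the simulation than were called in the data, and its noise was normal and independent between probe sets. Its shares therefore check the code and need not hold for the data. Arrays give no counts, so their number limits the precision.

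The members and the 8 pathway and 7 marker lists were chosen with earlier results of these data known. Named genes are the 8 members with all probe sets, up to 3 genes of each pathway list with the smallest p, Fgfr1 and Klb, and the 2 genes most correlated with each member; the other list genes named were picked after their values were seen.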

Additional observations from a re-analysis of the deposited data

How the results depend on the processing

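Of the 14 probe sets of the 8 genes 0 were called; 1 was called with a trended and robust spread and with the macrophage mean as a covariate, and 2 with array weights and without dim probe sets. Leaving out 1 array gave 0 to 1, with 1 without control IgG replicate 1 or anti-FGFR1 replicate 1 or 2. Over these alternatives the adjusted p (limma or exact permutation test) ran from 0.0237 to 0.632 for Rxra 1425762_a_at and from 0.0409 to 0.821 for Cebpb 1427844_a_at, the differences staying below 0. The 2411 probe sets called in all became 1461 with the brightest probe set of each gene, 1486 with probe sets averaged, 950 with the 3' to 5' covariate, 222 with the endothelium covariate (whose values do not overlap between the groups), 1595 by the exact permutation test and 1596 without the array of each group lowest in muscle markers, an alternative chosen after seeing the data. Without single arrays they were 1700 to 2903. A second quantile normalization gave 2437, 59% of them lower against 68.9%, with 2 coregulators and 3 adipogenesis regulators higher and 0 RXR partners lower.

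Differences near 0 changed sign, and the cause was not tested. After a second quantile normalization the second Ppara probe set was at 0.012, the dim Ppard probe set at -0.0013 and Rxrb at 0.016. With the 3' to 5' covariate the dim Rxra probe set was at 0.031 and Rxrb at 0.019. With the macrophage mean Ppara was at 0.027 and 0.025 and the dim Rxra probe set at 0.022, and with the muscle mean Ppara was at 0.0031 and 0.0053. With the endothelium mean the dim Ppard probe set was at -0.047, Rxra at 0.075 and 0.042, Rxrb at 0.089 and Cebpa at 0.018. Without the arrays lowest in muscle markers the dim Ppard probe set was at -0.0046 and Rxrg at -0.0057. Without single arrays the ranges were -0.060 to 0.047, -0.061 to 0.071 and -0.12 to 0.021 for Ppara, -0.013 to 0.040 for the dim Ppard probe set, -0.034 to 0.027 for the dim Rxra probe set, -0.057 to 0.0075 for Rxrb and -0.036 to 0.022 for Cebpa. The shift of Rxra minus Rxrb ran from -0.063 to 0.012 and that of Cebpa minus Cebpb from 0.12 to 0.20.

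Same-numbered arrays of both groups correlated at 0.224, 0.278, 0.174, 0.0368, -0.211 and -0.0742 in their deviations from the group means. Not every pair was above 0.1, so the numbers were not taken to pair the mice, and what a number marks is not given in the labels. With the replicate block 2301 probe sets were called, and 0 of the 14; adjusted p was 0.0695 for Cebpb 1427844_a_at and 0.111 for Rxra 1425762_a_at (limma). Of the 14 called list genes Rarb did not pass with the block (-0.19 ± 0.06, limma adjusted p = 0.0943).

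Of the 14 probe sets 12 were brighter than the median probe set, and the dim ones are 1 of Ppard and 1 of Rxra. A single probe set stands for each of Pparg, Rxrb, Rxrg and Cebpa, so these genes have no second measurement on the array.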
